A study of Arabidopsis thaliana with 2 samples.

Results

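The core promoter MHSs described here are the MNase hypersensitive sites (MHSs) that lie directly in front of protein-coding genes of *Arabidopsis thaliana*. They were taken from the MHS list of replicate 1 as every MHS whose midpoint lay 1 to 200 bp upstream of the transcription start site (TSS) of a protein-coding gene and outside every annotated gene body. Intervals between 2 divergent protein-coding genes with TSSs at most 1500 bp apart were left out. This gave 8860 of the 70046 MHSs of replicate 1 (12.6%), and the same rule gave 6587 of the 49934 MHSs of replicate 2 (13.2%). MH-seq maps open chromatin by a light digestion of cross-linked nuclei with micrococcal nuclease (MNase), after which the released DNA fragments below 100 bp are sequenced. Both libraries came from whole seedlings of the ecotype Columbia (Col-0), 2 weeks old, raised at 23 °C with 16 h of light and 8 h of darkness and fixed with 1% formaldehyde. They are 2 replicates of 1 group, with no treatment, mutant or control, so the study question that can be addressed is where these promoters are open and how far both libraries share them. The lists hold positions alone, with no score or read count, so the depth behind a single MHS is unknown and no test between conditions was possible. Shares are given with exact (Clopper-Pearson) 95% intervals, which cover counting error only, because MHSs of a library are not independent replicates. Whole seedlings mix many cell types, and an MHS found in few cells cannot be told apart from a weaker one found in many.

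The core promoter is the stretch around the TSS on which RNA polymerase II and the general transcription factors assemble. In plants the TATA-binding protein (TBP) contacts a TATA box a short distance upstream of the TSS in a minority of genes, and most other promoters use different elements. Active core promoters are usually depleted of nucleosomes, so that the DNA is exposed to nucleases, and they are flanked by a well placed nucleosome just inside the gene. Known plant promoter elements near the TSS include the CCAAT box bound by NF-Y factors, the G-box bound by bHLH and bZIP factors, the W-box bound by WRKY factors and the site II element bound by TCP factors in genes of the translation machinery.

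Sequences are shown for 7 core promoter MHSs of well known genes, chosen as the first in each of 7 gene lists whose MHS overlapped replicate 2 and reached at most 300 bp upstream. Only the part upstream of the TSS is printed, on the strand of the gene, 5′ to 3′, from the RefSeq sequence of TAIR10.1. Capitals mark matches to the promoter elements searched here. The matches found were the TBP site, spelled TATAAA or spelled TATATA and searched on the strand of the gene only, and 4 elements searched on both strands. These are the NF-Y site CCAAT, site II (TGGGCC or else TGGGCT), the G-box (CACGTG) and the element GAGAGA.
CAB2: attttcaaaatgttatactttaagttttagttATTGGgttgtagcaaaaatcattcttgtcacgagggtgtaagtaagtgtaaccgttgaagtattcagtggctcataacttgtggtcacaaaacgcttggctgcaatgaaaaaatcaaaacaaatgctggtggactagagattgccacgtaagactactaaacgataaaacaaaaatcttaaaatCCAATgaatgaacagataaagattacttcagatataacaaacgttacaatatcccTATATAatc
AT5G60390: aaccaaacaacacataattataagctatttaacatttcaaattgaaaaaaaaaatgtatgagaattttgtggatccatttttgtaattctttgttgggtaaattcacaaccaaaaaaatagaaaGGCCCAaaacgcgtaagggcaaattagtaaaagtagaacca
HY5: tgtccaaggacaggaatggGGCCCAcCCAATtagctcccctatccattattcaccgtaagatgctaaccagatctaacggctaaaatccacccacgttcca
HSP18.2: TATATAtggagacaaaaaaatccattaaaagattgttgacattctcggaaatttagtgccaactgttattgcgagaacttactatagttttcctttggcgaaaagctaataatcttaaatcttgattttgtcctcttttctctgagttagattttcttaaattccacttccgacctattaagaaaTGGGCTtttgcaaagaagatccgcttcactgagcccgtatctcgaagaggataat
ERF1: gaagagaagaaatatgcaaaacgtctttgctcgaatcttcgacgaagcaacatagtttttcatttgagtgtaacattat
AP1: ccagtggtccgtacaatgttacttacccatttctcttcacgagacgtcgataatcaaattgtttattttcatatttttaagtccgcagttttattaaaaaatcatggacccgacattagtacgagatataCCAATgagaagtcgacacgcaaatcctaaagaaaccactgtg
ABI5: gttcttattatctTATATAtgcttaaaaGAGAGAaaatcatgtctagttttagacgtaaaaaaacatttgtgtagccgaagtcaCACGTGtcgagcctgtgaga

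CAB2 (LHCB1.1, AT1G29920) encodes an antenna protein of photosystem II, and its MHS of 344 bp in replicate 1 faced one of replicate 2 from 10475898 to 10476237. The printed part, chr1:10475970-10476249, held TATATA 4 to 9 bp upstream of the annotated TSS and CCAAT letters at 60 to 64 bp. AT5G60390 encodes a translation elongation factor, and its printed part, chr5:24288431-24288595, held a site II match 36 to 41 bp upstream. In HY5 (AT5G11260), a bZIP factor of light signalling, the stretch chr5:3595074-3595174 held site II at 77 to 82 bp and CCAAT at 71 to 75 bp, next to each other. HSP18.2 (AT5G59720) encodes a small heat shock protein. Its stretch chr5:24062083-24062322 ends where a neighbouring gene begins, which left 40 bp of its MHS unprinted, and held site II at 50 to 55 bp. ERF1 (AT3G23240), an ethylene response factor, had a short MHS of 79 bp at chr3:8295435-8295513, whose sequence held none of the 11 elements. The stretch of the floral regulator AP1 (AT1G69120), chr1:25986350-25986521, held CCAAT at 38 to 42 bp. ABI5 (AT2G36270), a bZIP factor of abscisic acid signalling in seeds, had an MHS of 104 bp at chr2:15207763-15207866 with a G-box at 141 to 146 bp. Of these 7 sequences, HY5 had the lowest A/T content (50.5%) and AT5G60390 the highest (71.5%).

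Of the 70046 MHSs of replicate 1, 13390 had a midpoint within 200 bp upstream of a protein-coding TSS. The midpoints of 1576 of them lay inside another annotated gene and 2954 lay between divergent genes, which left the 8860 core promoter MHSs with 2296529 of the 13927804 bp of the list. In replicate 2 the same steps removed 1373 and 2332 of 10292 MHSs. The 8860 MHSs belonged to 8634 genes, or 31.5% of the 27444 protein-coding genes, and those of replicate 2 to 6516 genes or 23.7%. Most genes had a lone core promoter MHS, and 226 genes in replicate 1 and 71 in replicate 2 had 2. Both replicates had a core promoter MHS at 5330 genes, and either replicate at 9820 genes (35.8%). The rule limited such MHSs at many genes, because 6357 were in divergent pairs and 2088 had the base before the TSS inside another gene, although a few of these genes still had one. Among the 18999 other genes, called eligible from here on, 8536 had a core promoter MHS in replicate 1 (44.9%, interval 44.2 to 45.6%) and 6447 in replicate 2 (33.9%, interval 33.3 to 34.6%). The share of protein-coding genes with a core promoter MHS differed little between chromosomes, from 30.3% on chromosome 3 to 32.4% on chromosome 5 in replicate 1, and from 23.3% to 24.1% in replicate 2.

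Within the 200 bp, core promoter MHSs lay close to the TSS. In replicate 1, 1434, 1585, 1545 and 1270 midpoints fell in the first to the fourth 25 bp upstream, and the number then decreased to 595 in the 25 bp from 176 to 200. Replicate 2 had the same shape, with 1151, 1183, 1207 and 922 midpoints in the first 100 bp and 375 in the last 25 bp. The median midpoint was 73 bp upstream in replicate 1 and 70 bp in replicate 2. Most of these MHSs were not confined to the promoter: 6442 of 8860 (72.7%, interval 71.8 to 73.6%) reached the TSS, and those ended at a median of 82 bp inside the transcript. In replicate 2 the share was also 72.7%, with a median of 77 bp. The far edge lay at a median of 198 bp upstream in replicate 1 (quartiles 147 and 259 bp) and 191 bp in replicate 2. The position 30 bp upstream of the TSS, where TBP binds in TATA promoters, was covered by 7091 core promoter MHSs in replicate 1 (80.03%) and 82.4% in replicate 2.

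**Figure D1:**
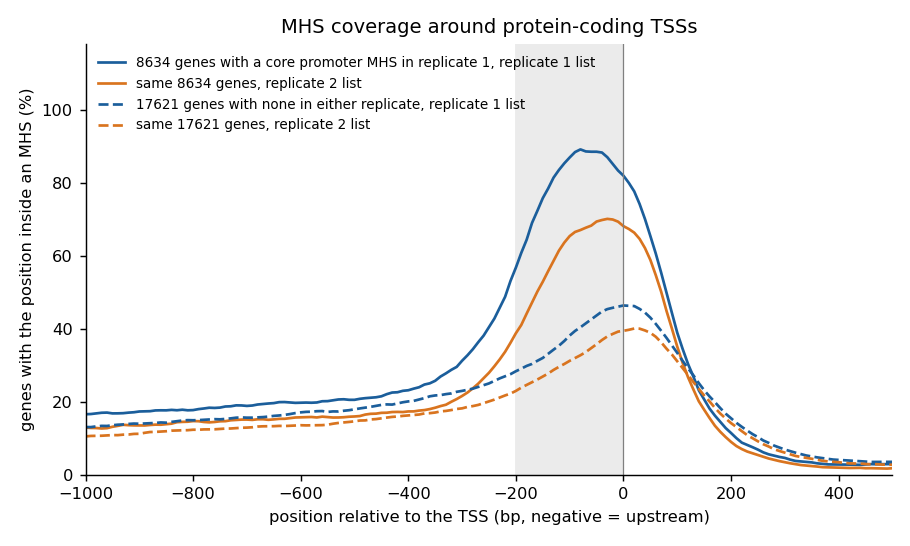
The share of genes (%) in which a position lies inside an MHS, against the distance from the TSS in bp, for 8634 genes with a core promoter MHS in replicate 1 (solid lines) and 17621 genes with none in either replicate (dashed lines), in the lists of replicate 1 (blue) and replicate 2 (orange). The grey band is the 200-bp window of the rule, and the solid blue line is high there by construction. The replicate 2 list, which did not choose these genes, reached 70.1% at 30 bp upstream and fell to 8.999% at 200 bp inside the gene. The fall inside the gene is favoured by the rule, which keeps only MHSs with midpoints upstream of the TSS.

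The profile over the TSS fell inside the gene. The rule favours this fall, because it keeps only MHSs with midpoints upstream of the TSS and outside gene bodies. Most of these MHSs overlapped replicate 2, so the fall in replicate 2 is not independent of the rule. Over the 8634 genes chosen with replicate 1, coverage by replicate 2 was 16.0% at 500 bp upstream and 38.8% at 200 bp, reached 70.1% at 30 bp, and was 35.1% at 100 bp and 8.999% at 200 bp inside the gene. Replicate 1 itself, which the rule used, peaked at 89.1% at 80 bp upstream and was 11.4% at 200 bp inside. The 17621 protein-coding genes with no core promoter MHS in either list were not free of MHSs. They had a maximum of 46.4% in replicate 1 at the TSS and of 40.1% in replicate 2 at 20 bp inside the gene, where MHSs with midpoints inside the gene or in divergent intervals count. Of the 8634 core promoter genes, 4091 (47.4%) also had an MHS with its midpoint more than 200 and up to 1000 bp upstream in replicate 1, and in replicate 2 it was 2261 of 6516 (34.7%).

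The gene neighbourhood of core promoter genes was much like that of the eligible genes without a core promoter MHS. The median distance to the next gene upstream was 1613 bp and 1598 bp, respectively, and 69.5% and 72.3% had that neighbour on the same strand. A larger contrast was in the annotation of the transcripts. A 5′ UTR was annotated for 8189 of 8632 core promoter genes (94.9%) but for 8142 of 10460 eligible genes without one (77.8%), whereas the median 5′ UTR length was 181 and 190 bp. In replicate 2, 95.7% of the core promoter genes had an annotated 5′ UTR. A TSS without a 5′ UTR is the start of the coding sequence in the annotation and not a mapped transcript end, so distances for those genes are less certain.

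Core promoter MHSs were longer than MHSs in general. In replicate 1 their median length was 247 bp (quartiles 138 and 340 bp, range 38 to 1283 bp), compared with 146 bp for all MHSs, 122 bp for the 12534 MHSs with midpoints more than 200 and up to 1000 bp upstream and 214 bp for the 8301 MHSs in 5′ UTRs. In replicate 2 the medians were 236, 187, 173 and 198 bp, in the same order. The mean length was 259 ± 151 bp in replicate 1 and 252 ± 126 bp in replicate 2 (SD over MHSs). Short MHSs, up to 100 bp, were 17.6% of the core promoter MHSs and 36.4% of all MHSs in replicate 1, and 7.38% and 13.4% in replicate 2. By contrast, lengths above 200 and up to 400 bp accounted for 47.3% of core promoter MHSs and 28.7% of all MHSs in replicate 1, and 50.1% and 36.4% in replicate 2. Since the lists come from 1 group, these differences were not tested, but their direction was the same in both libraries.

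**Figure D2:**
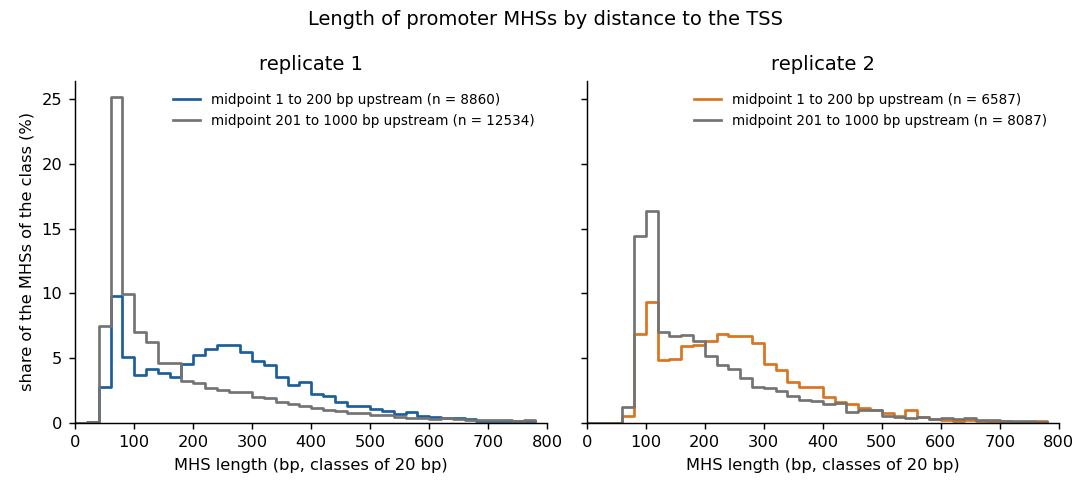
Length distribution of MHSs with midpoints 1 to 200 bp upstream (coloured) and more than 200 and up to 1000 bp upstream (grey) of a TSS, as a share (%) of each class in length classes of 20 bp, for replicate 1 (left) and replicate 2 (right). Each core promoter distribution has a narrow peak near the shortest lengths and a broad one between about 200 and 400 bp, and the grey distributions have mainly the narrow peak. MHSs above 800 bp are not drawn.

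Length varied with the distance to the TSS. In replicate 1 the median was 233 bp for midpoints in the first 25 bp and 273 bp in the fifth 25 bp, then dropped to 142 bp from 176 to 200 bp. In replicate 2 it was 225, 256.5 and 192 bp in the same classes. At the inner limit, 551 members had midpoints 1 to 10 bp upstream with a median of 225 bp, and 738 MHSs with midpoints in the first 10 bp of a protein-coding gene, which are not members, had the same median. At the outer limit, 224 members in the last 10 bp of the window had a median of 144.5 bp and 238 MHSs in the next 10 bp had 130 bp. Of these, 16 members lay at exactly 200 bp and 29 MHSs were 1 bp beyond. The members at 200 bp included a 521-bp MHS of NTRC, a chloroplast thioredoxin reductase, at chr2:17378999-17379519, which overlapped replicate 2, and a 59-bp MHS of ELF4-L1, a relative of the clock gene ELF4, at chr2:12767356-12767414, which did not.

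Core promoter MHSs were mostly found again in the other library. Of the 8860 of replicate 1, 7036 overlapped an MHS of replicate 2 by at least 1 bp (79.4%, interval 78.6 to 80.3%), compared with 61.9% of all MHSs of replicate 1, 55.7% of those more than 200 and up to 1000 bp upstream and 79.0% of those in 5′ UTRs. In the other direction, 6284 of the 6587 of replicate 2 overlapped replicate 1 (95.4%, interval 94.9 to 95.9%), compared with 86.9% of all MHSs, 85.8% of those more than 200 and up to 1000 bp upstream and 96.5% of those in 5′ UTRs. Short MHSs overlapped less often than long ones in each of these classes. Among core promoter MHSs of replicate 1, 478 of 1561 of at most 100 bp overlapped replicate 2 (30.6%), then 68.7% of 1746 up to 200 bp, 95.5% of 4191 up to 400 bp and 99.6% of 1362 above 400 bp. All MHSs of replicate 1 had 26.2%, 62.0%, 94.0% and 99.4% in the same length classes. Within a length class of replicate 1 the core promoter share was at most 6.71 percentage points above that of all MHSs, less than the 17.5 points over all lengths. In replicate 2, core promoter MHSs of at most 100 bp overlapped in 73.3% of cases, and 4009 of 6678 MHSs of that length in general did (60.03%). That gap of 13.2 points exceeded the 8.48 points over all lengths of replicate 2.

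**Figure D3:**
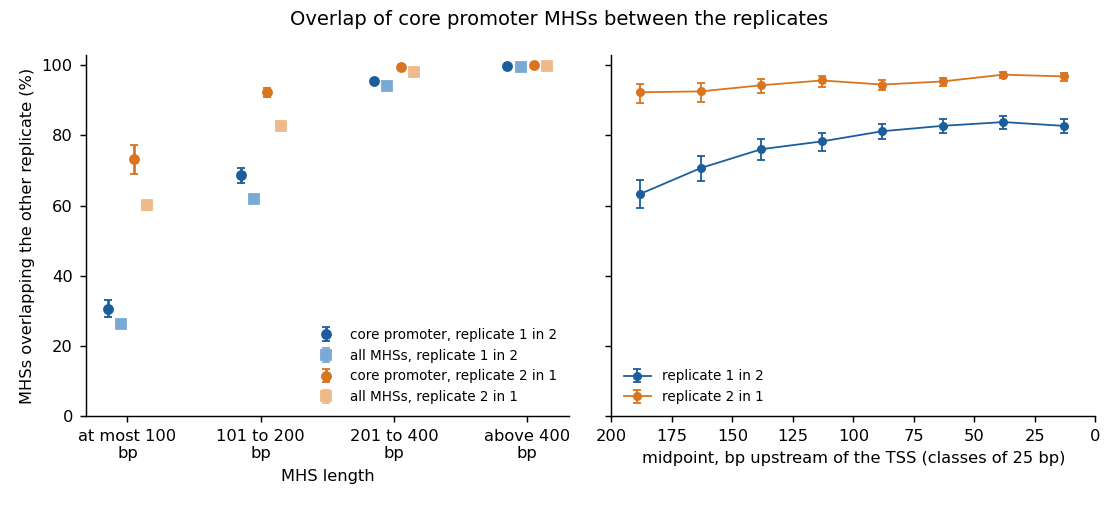
Share (%) of core promoter MHSs that overlap the other replicate by at least 1 bp, by MHS length (left, circles, with all MHSs of the same library as squares) and by midpoint distance to the TSS in classes of 25 bp (right). Blue is replicate 1 against replicate 2 and orange is replicate 2 against replicate 1, and bars are exact 95% intervals. The share rises from 30.6% to 99.6% with length in replicate 1 and falls from 82.7% next to the TSS to 63.4% at 176 to 200 bp.

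The overlap also decreased with distance to the TSS, from 82.7% in the first 25 bp to 63.4% (interval 59.3 to 67.2%) at 176 to 200 bp in replicate 1, and from 96.8% to 92.3% in replicate 2. Short MHSs were more frequent in the outer classes, and the part of length in this decrease was not tested. The 1824 core promoter MHSs of replicate 1 without an overlap had a median of 84 bp, against 279 bp for the others, and 409 of them (22.4%) lay within 100 bp of an MHS of replicate 2. Where both libraries had an MHS, their borders were close. The edge on the TSS side differed by a median of 26 bp and the far edge by 50 bp, and replicate 2 MHSs were 0.897 times as long (median ratio). For 5190 of the 7036 (73.8%) the partner was a core promoter MHS of the same gene in replicate 2, and for 1484 (21.1%) its midpoint lay in a gene body. A count by genes therefore gave less agreement than one by overlap: 61.7% of the replicate 1 genes were core promoter genes in replicate 2, but an MHS of replicate 2 touched the 200-bp window of 82.2% of them.

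The A/T content of core promoter MHSs differed between the libraries. Mean A/T content was 68.4 ± 5.73% in replicate 1 and 65.1 ± 4.23% in replicate 2 (SD over MHSs), against 69.3% and 64.6% over all MHSs. The 200 bp upstream of all eligible genes had 69.2%, so neither list exceeded the promoters in general. The part of the MHSs upstream of the TSS alone had 69.6% in replicate 1. In replicate 1 the MHSs that overlapped replicate 2 had 67.0 ± 4.64% and those that did not 73.5 ± 6.56%. Short MHSs had more A and T, with 72.2% at lengths of at most 100 bp and 67.0% between 200 and 400 bp. The base composition of the promoter itself went with the replicate difference. Where the 200 bp upstream had an A/T content from 60 to below 65%, 49.6% of the eligible genes had a core promoter MHS in replicate 1 and 50.3% in replicate 2. From 70 to below 75% the shares were 42.6% and 28.1%, and at 75% or more they were 42.7% (interval 41.01 to 44.5%) and 11.9% (interval 10.8 to 13.03%). Below 65%, the lists differed by less than 2 percentage points. The study describes its second data set as having more background and a larger share of chloroplast reads than its first. Depth, background and digestion of the libraries cannot be told apart from the replicate.

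TATA boxes were searched as TATAAA or TATATA on the strand of the gene. They were most frequent 31 to 40 bp upstream, where 6.81% of core promoter genes had a match that began there, compared with 2.79% at 81 to 90 bp. Eligible genes without a core promoter MHS in replicate 1 had 7.599% and 3.18%. Within 20 to 45 bp upstream, 1028 of 8634 core promoter genes of replicate 1 held a TATA box (11.9%, interval 11.2 to 12.6%) and 12.1% of those of replicate 2, against 12.9% of the eligible genes without one and 11.6% of all protein-coding genes. The 1070 MHSs at TATA genes were somewhat shorter in replicate 1, with a median of 221 bp against 250 bp, and 802 of them overlapped replicate 2 (74.95%) against 6234 of the 7790 others. In replicate 2 the medians were 205 and 241 bp. The share that reached the TSS was 69.9% at TATA genes against 73.1% at the others in replicate 1, and 59.5% against 74.6% in replicate 2. The whole zone from 20 to 45 bp lay inside the MHS at 799 of the 1070 (74.7%). Over the full 200 bp of core promoter genes, 80.2% of 7643 TATA matches lay inside a replicate 1 MHS, which covered 80.6% of the bases. Replicate 2 MHSs held 46.1% of the matches and covered 60.5% of the bases. The 200 bp of eligible genes had 71.0% A/T with a TATA box and 67.6% without. Replicate 2 had fewer core promoter MHSs than replicate 1 at promoters rich in A and T. The part of base composition or position in its lower share of TATA matches was not tested.

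Site II, TGGGCC or TGGGCT on either strand, was the element for which core promoter genes differed most in share from other genes among the 11 searched. It occurred in the 200 bp upstream of 2067 core promoter genes of replicate 1 (23.9%) and 1889 of replicate 2 (29.0%), compared with 7.23% of the eligible genes without one in replicate 1 and 17.6% of all protein-coding genes. Seen from the genes, 2043 of 2799 eligible genes with site II had a core promoter MHS in replicate 1 (73.0%, interval 71.3 to 74.6%), against 40.1% of the 16199 without. In replicate 2 it was 66.8% (interval 65.1 to 68.6%) and 28.2%. The share rose with the number of matches, from 60.3% with 1 to 80.9% with 2 and 85.0% with 3 or more in replicate 1, and from 50.97% to 75.3% and 84.3% in replicate 2. Promoters with site II had less A/T (65.7% against 69.8%), but the contrast was also there within classes of A/T content. From 65 to below 70%, 74.7% of the genes with site II and 39.8% of those without had a core promoter MHS in replicate 1, and 68.7% and 34.9% in replicate 2. At 75% or more it was 70.1% and 41.8% in replicate 1 and 29.9% and 11.2% in replicate 2.

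**Figure D4:**
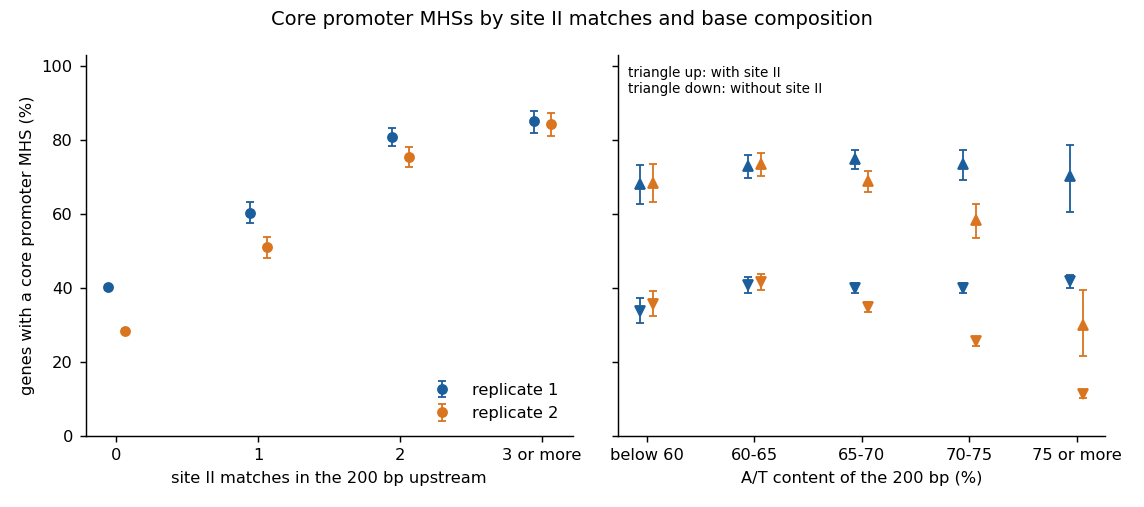
Share (%) of eligible genes with a core promoter MHS by the number of site II matches in the 200 bp upstream of the TSS (left) and by the A/T content of these 200 bp with and without site II (right, triangles up and down), for replicate 1 (blue) and replicate 2 (orange). Bars are exact 95% intervals. The share climbs with the number of matches in both replicates to 85.0% and 84.3%, and in each A/T class genes with site II lie above those without.

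The MHSs at site II genes were also long and shared. In replicate 1 their median was 284 bp against 225 bp at genes without site II, and 95.6% of the 2063 overlapped replicate 2, against 74.4%. Where the 200 bp had below 60% A/T, the overlap was 99.6% with and 93.6% without site II. At 75% or more it was 77.9% and 55.0%. Longer MHSs overlapped more often in general, and the part of length in this contrast was not tested. Of the 4027 site II matches in the windows of core promoter genes, 98.3% lay inside an MHS of replicate 1. In replicate 2 it was 96.6%, and over all bases of these windows the shares were 80.6% and 60.5%. Replicate 1 MHSs chose these windows, so the rule favours a high share there. Coverage also changed with position. It fell from its maximum of 89.1% at 80 bp upstream to 56.8% at 200 bp in replicate 1. In replicate 2 it fell from a maximum of 70.1% at 30 bp to 38.8% at 200 bp. The mean over 200 bp does not allow for this, and the part of position in the excess was not tested. The matches lay most often 61 to 70 bp upstream of the TSS (4.16% of core promoter genes), near the median MHS midpoint, and in 0.568% of them in the last 10 bp of the window. Genes with site II but no TATA box at 20 to 45 bp had a core promoter MHS in 73.0% of 2558 cases in replicate 1, and those with a TATA box but no site II in 39.5% of 2119. With both elements it was 72.6% of 241 genes, and with neither 40.2% of 14080.

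Other elements showed smaller contrasts. Eligible genes with a G-box (CACGTG), the site of light-signalling bHLH and bZIP factors, had a core promoter MHS in 62.8% of 989 cases in replicate 1 and 59.7% in replicate 2, against 44.0% and 32.5% without. For the CCAAT box the shares were 49.6% with and 42.0% without in replicate 1, and 39.3% and 30.6% in replicate 2. For the W-box (TTGACC or TTGACT) they were 49.7% and 43.4%, and 40.3% and 31.9%. The GCC-box (GCCGCC), bound by ethylene response factors, was present in 214 eligible genes only, with 48.1% in replicate 1 and 47.2% in replicate 2, where genes without it had 44.9% and 33.8%. The A/T content of the 200 bp was 63.2% with a GCC-box and 64.4% with a G-box, against 69.3% and 69.4% without. All eligible genes from 60 to below 65% A/T had shares of 49.6% and 50.3%. These 2 elements were not compared within A/T classes. The I-box (GATAAG) and the evening element (AAATATCT) of clock-controlled genes differed by less than 3 percentage points between genes with and without them in both replicates. The telo-box (AAACCCT), the GAGAGA element and the pyrimidine patch (TTCTTC on the strand of the gene) had lower shares in genes with them in both replicates. The largest gap was 40.1% against 45.7%, for the pyrimidine patch in replicate 1. In replicate 2 the telo-box had 31.8% (interval 28.9 to 34.7%) against 34.1%, and GAGAGA 33.2% (interval 31.5 to 34.9%) against 34.1%. Both intervals included the share without the element. Per kb of MHS, GAGAGA had 3.13 matches in core promoter MHSs, 1.12 in those more than 200 and up to 1000 bp upstream and 5.27 in MHSs of 5′ UTRs. Most core promoter MHSs ran past the TSS, and the whole of them held 7196 GAGAGA matches. In the 200-bp windows of core promoter genes, 1602 matches lay inside an MHS of replicate 1. There, 14.7% of core promoter genes of replicate 1 held GAGAGA, against 17.2% of all protein-coding genes. Runs of the TBP site, of GAGAGA or of TTCTTC can overlap one another and were counted at each start. None of these contrasts was tested, and a match is not evidence of binding.

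Gene groups were formed by RefSeq product names, 20 in all, and are given beside the 31.5% and 23.7% of all protein-coding genes. The WRKY factors, regulators of defence, had the highest share of all their genes in replicate 1, with a core promoter MHS at 38 of 72 genes (52.8%, interval 40.7 to 64.7%), and 38.9% in replicate 2. Splicing factors followed the same direction with 43.3% and 41.7% of 60 genes, the highest share of replicate 2, and ribosomal proteins, organellar ones included, with 38.7% and 32.4% of 253. Proteasome subunits had 40.5% and 32.4% of 37 genes, photosystem and antenna proteins 37.7% and 35.8% of 53, and MYB factors 37.3% and 31.7% of 126. The bHLH factors had 41.4% and 30.1% of 133 genes. For proteasome, photosystem and antenna, and MYB genes the intervals included the share of all genes in both replicates. The same held for splicing factors in replicate 1 (30.6 to 56.8%) and bHLH factors in replicate 2 (22.4 to 38.6%). SAUR proteins, small products of auxin-induced genes, were at 43.6% in replicate 1 but at 23.1% in replicate 2, below the share of all genes there. Cytochrome P450s had 34.4% and 23.4% of 218 genes, which is near the share of all genes.

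Some groups had lower shares than all genes in both replicates. Defensin-like proteins, a large family of small secreted peptides, had a core promoter MHS at 31 of 193 genes in replicate 1 (16.1%, interval 11.2 to 22.0%) and at 9 in replicate 2 (4.66%, interval 2.15 to 8.67%). Peroxidases had 19.4% and 20.9% of 67 genes, seed storage, cupin and LEA proteins 19.7% and 14.4% of 264, and F-box proteins 23.2% and 15.3% of 652. The peroxidase interval in replicate 2, 11.9 to 32.6%, included the share of all genes. NBS-LRR receptors, the intracellular immune receptors, had 27.0% (interval 19.8 to 35.1%) and 23.4% of 141, and receptor-like kinases 29.9% (interval 21.8 to 39.1%) and 20.5% of 117, with intervals that include the share of all genes in both replicates. The groups also differed in length in replicate 1. The median core promoter MHS was 408 bp at photosystem and antenna genes and 303 bp at MYB genes, compared with 75 bp at defensin-like genes, 122 bp at SAUR genes and 247 bp over all. Divergent pairs removed more genes in some groups than in others. Among eligible genes only, the shares in replicate 1 were 70.3% for splicing factors, 66.7% for core histones and 64.9% for ribosomal proteins. The WRKY factors were at 59.4%, below photosystem and antenna proteins (62.5%), and defensin-like proteins at 20.8%, against 44.9% over all.

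**Figure D5:**
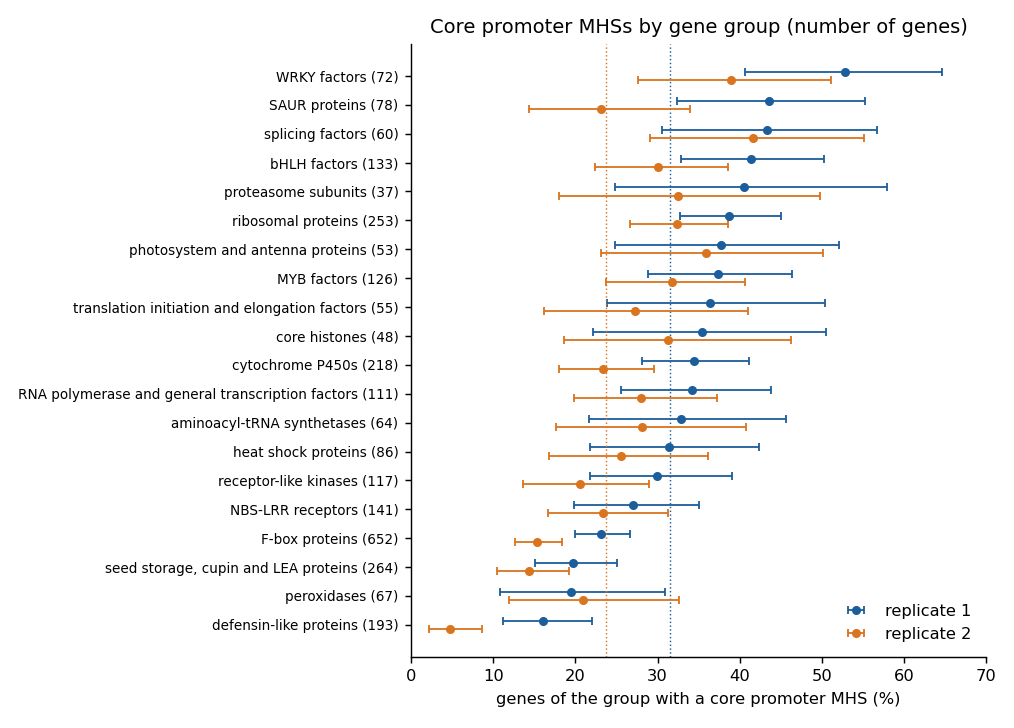
Share (%) of the genes of each group with a core promoter MHS in replicate 1 (blue) and replicate 2 (orange), with exact 95% intervals, ordered by replicate 1. Dotted lines are the shares over all protein-coding genes, 31.5% and 23.7%, and the number of genes follows each name. The intervals of defensin-like, F-box and seed storage, cupin and LEA genes lie below the dotted line of the same replicate, and those of WRKY factors and ribosomal proteins lie above it, in both replicates.

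Well known promoters were followed gene by gene in 7 lists of 67 genes. Of these, 11 stood in divergent pairs, 4 had the base before the TSS inside another gene, and 52 were eligible. A core promoter MHS was present at 32 genes in replicate 1 and 26 in replicate 2, and 21 genes had one in both. Over all eligible genes, 44.9% had one in replicate 1, 33.9% in replicate 2 and 27.8% in both. The 67 genes were picked as well known and are not a sample of all genes. Among the 32, the MHSs of 28 genes overlapped replicate 2, and 79.4% of all core promoter MHSs of replicate 1 did. Of the 20 eligible genes without one in replicate 1, 8 had no base of the 200 bp inside an MHS of either library. The remaining ones were covered in part or in full in at least 1 library. No count of empty windows over all genes is given here.

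In the photosynthesis list, CAB2 and CAB1 (LHCB1.3), both of the photosystem II antenna, had their whole 200 bp inside MHSs in both libraries. The MHSs of CAB1 were 445 bp long in replicate 1 and 394 bp in replicate 2, with midpoints 48 and 29 bp upstream. RCA, the Rubisco activase, had an MHS of 561 bp in replicate 1, with its midpoint 15 bp upstream, and 200 bp of its window covered, but 2 bp covered in replicate 2. RBCS1A, a small subunit of Rubisco, had no core promoter MHS, although 104 bp of its window were covered in replicate 1 and 17 bp in replicate 2. The catalase gene CAT2, with a TATA box, and the plastocyanin gene PETE1 had none either, with 110 and 58 bp of the window covered in replicate 1. PETE2 lay in a divergent pair and the base before the TSS of GAPA was inside another gene, and neither had a core promoter MHS.

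Among housekeeping genes, the actin gene ACT7 had MHSs of 714 and 509 bp with midpoints 191 and 91 bp upstream. ACT2 had one of 378 bp in replicate 1, and 197 of its 200 bp were covered in replicate 2 by an MHS centred elsewhere. UBQ10, a polyubiquitin gene, was a core promoter gene in replicate 2 only, with an MHS of 573 bp, but its window was fully covered in both libraries. Both TBP genes had a core promoter MHS in both. TBP1 had 320 and 312 bp with midpoints 59 and 47 bp upstream, and TBP2 had 191 and 389 bp with midpoints 192 and 107 bp upstream. Both also held a TATA box at 20 to 45 bp. GAPC1, of glycolysis, had no core promoter MHS but a fully covered window in both libraries. UBQ3, PP2AA3 and the cyclin gene CYCB1;1 were in divergent pairs, and the base before the TSS of CYCD3;1 was inside another gene.

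All 6 eligible genes of light signalling and the clock had a core promoter MHS in replicate 1, against 44.9% of all eligible genes. Each of these MHSs overlapped replicate 2, against 79.4% of all core promoter MHSs of replicate 1. By the rule, 4 of the 6 genes also had one in replicate 2. The photoreceptor gene PHYA had MHSs of 560 and 181 bp and PHYB of 551 and 380 bp. CCA1, a morning regulator of the clock, had 624 and 679 bp, and its partner LHY had 531 bp in replicate 1. PIF4, a growth-promoting bHLH factor, had the longest of the list, 977 bp, which began 567 bp upstream and ran into the gene. Their windows were fully covered in both libraries, except 97 of 200 bp at PHYA in replicate 2 and 182 bp at HY5 in replicate 1. CHS, DFR and the clock gene TOC1 stood in divergent pairs.

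In the stress and nutrient list, the inducible genes HSP18.2 and RD29A had long MHSs in seedlings for which the labels name no stress. HSP18.2 had 361 and 453 bp, and RD29A, a cold and drought target, had 454 and 426 bp with midpoints 81 and 65 bp upstream. The nitrate reductase gene NIA1 had 467 and 469 bp, whereas NIA2 had no core promoter MHS but 188 and 200 of 200 bp covered. COR47 had 646 bp in replicate 1 with 193 bp of its window covered in replicate 2. ADH1 had a short MHS of 85 bp in replicate 1 with no overlap in replicate 2. KIN1, with a TATA box, had none, with 99 and 54 bp of its window covered. HSP101, RD29B and COR15A stood in divergent pairs.

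The hormone and defence list was mixed. PR1 and PDF1.2, markers of salicylic acid and jasmonate responses, had no base of the 200 bp inside an MHS in either library. LOX2 and JAZ1, of the jasmonate pathway, had no covered base in replicate 1 but MHSs of 182 and 81 bp in replicate 2. IAA19, an auxin-induced repressor, had MHSs of 330 and 395 bp, PAD3 of 264 and 133 bp and the sucrose transporter SUC2 of 133 and 140 bp. ERF1 had a pair of core promoter MHSs in replicate 2, where 186 bp of its window were covered, against 80 bp in replicate 1. ARR5, of the cytokinin response, had 290 bp in replicate 1, and VSP2 had 166 bp in replicate 2. GA20OX1, of gibberellin synthesis, had none, with 145 bp of its window covered in replicate 1 and 43 bp in replicate 2, and WRKY33 was in a divergent pair.

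The list of flowering and development genes had the most empty windows. FT, AG, GL1, STM, WUS and CLV3 had no base of the window inside an MHS in either library. SOC1, a floral integrator, had MHSs of 457 and 343 bp, with the whole window covered in both, and AP1 had 174 and 311 bp. KNAT1 had 197 and 82 bp. LFY had a lone MHS of 83 bp in replicate 1 with no overlap. GL2 had none, with 45 and 133 bp of its window covered. CO and the floral repressor FLC had the base before the TSS inside another gene, and FLC had a core promoter MHS of 157 bp in replicate 2. In the seed list, ABI5 had 104 and 400 bp, EM6, a LEA protein gene, 149 and 120 bp, and CRA1, a seed storage protein gene, 58 bp in replicate 1 with no covered base in replicate 2.

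The longest core promoter MHSs that overlapped replicate 2 reached far into both sides of the TSS. The longest, 1283 bp at chr5:3509028-3510310, belonged to KNAT4, a KNOTTED-like homeobox gene, and ran from 805 bp upstream into the gene. Replicate 2 had 452 bp of it in its own MHS. A remorin gene, AT2G41870, had 1103 bp at chr2:17472563-17473665 with 876 bp in replicate 2, and AT5G11650, an alpha/beta-hydrolase gene, had 1056 bp with 418 bp in replicate 2. MTM1 (AT4G27940), a mitochondrial carrier linked to manganese superoxide dismutase, had 1000 bp against 886 bp, and AT4G28240, a wound-responsive gene, 982 bp against 365 bp. None of these 5 had a TATA box at 20 to 45 bp, which 11.9% of all core promoter genes of replicate 1 had. The replicate 2 MHSs were shorter, and the choice of the longest members of replicate 1 favours that.

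Of the 21 sites the study picked for follow-up, 3 were core promoter MHSs. The site sMHS1, 80 bp at chr1:24978008-24978087, had its midpoint 74 bp upstream of ABCG39, a transporter gene, and an A/T content of 82.5%. The site sMHS3, 75 bp at chr5:20561364-20561438, lay 173 bp upstream of NF-YC5, a subunit of the CCAAT-binding factor, with 76% A/T. Neither had an MHS of replicate 2 near, the closest being 2296 and 2751 bp away. The remaining site, 92 bp at chr3:9521688-9521779, was centred 4 bp upstream of AT3G26050, a TPX2 family gene, had 66.3% A/T and overlapped replicate 2.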

How the data were processed

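Col-0 seedlings gave 2 MH-seq libraries. The authors used Cutadapt for trimming, Bowtie2 for alignment to TAIR10 and Jazz for calling MHSs, library by library. Reads aligned over their full length and above a mapping-quality limit were kept, and Jazz set a read-count threshold by a Bayes factor. Tool versions and the Bayes factor limit are not given in the sources used here. The deposited lists hold positions only, with no score or count. The library labelled without a number was taken as replicate 1, and the list of replicate 2 differs in its number of regions from the study's description of its second data set. The lists were read as 0-based and are printed 1-based. Genes, UTRs and sequence came from RefSeq TAIR10.1. The TSS was the outermost annotated gene start.

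Members and lists were chosen with earlier results of these data known. Named genes were 67 well known genes, the 5 longest members overlapping replicate 2, the study's follow-up sites and members at the 200-bp limit. The values of 1 of the 67 are not reported here. The members named at 200 bp, the A/T classes and the counts of site II copies were chosen after values were seen. The histone pattern was corrected, and 2 gene groups renamed, after their matches were seen. Alternatives changed the window, the divergent limit, gene bodies, merging, minimum length, overlap, TATA letters and the replicate. Python 3.11.15, numpy 2.4.6, scipy 1.17.1 and matplotlib 3.10.9 were used, and 18 of 18 tests on simulated data recovered the known answer. DNase-seq, ATAC-seq, histone, methylation and expression data were not analysed here.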

Additional observations from a re-analysis of the deposited data

How the results depend on the processing

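No paired analysis was possible because the design has 1 group and no test was run. The number of 8860 core promoter MHSs was 5834 with a window of 100 bp. Under the other alternatives it was within 1.5 times that number, including 11814 with no divergent interval left out, and without replicate 1, from the other list, it was 6587. The overlap share of 79.4% was 60.6% with a reciprocal overlap of at least 50%, 70.2% when at least 50% of the member had to be covered and 84.0% within 100 bp. It was 82.7% after merging MHSs at most 50 bp apart and 87.2% when MHSs below 100 bp were dropped. Keeping the divergent intervals gave 80.4%. This share needs both lists, so it has no version without replicate 1. The reverse share, of replicate 2 members that overlapped replicate 1, was 95.4%. The median length of 247 bp was 236 bp without replicate 1, 282 bp after merging, 279 bp for members overlapping replicate 2 and 259 bp as a mean. The share of genes, 31.5%, was 23.7% without replicate 1, 41.4% for genes outside divergent pairs, 36.1% for genes whose 200 bp upstream are free and 29.1% for genes with 1 annotated transcript start, an alternative chosen after seeing the data. The TATA share of 11.9% was 6.90% with TATAAA only, 17.0% from 20 to 60 bp and 12.1% without replicate 1. The A/T content of 68.4% was 65.1% without replicate 1. Stricter settings count fewer MHSs and wider ones more. For the rest, the cause was not tested. The lists hold no score or depth, so whether an MHS missing in a library fell below its limit of detection cannot be told from them.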

Other observations

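The elements searched in the 200 bp upstream of the TSS were unevenly spread over the gene groups. Over all protein-coding genes, 17.6% held site II. Among ribosomal protein genes it was 58.5%, among splicing factors 51.7%, among proteasome subunits 48.6% and among translation initiation and elongation factors 47.3%. The WRKY factors, which had the highest share of core promoter MHSs in replicate 1 over all genes but not over eligible genes, held it in 2.78% of genes, and the bHLH factors in 3.76%. Defensin-like genes held site II in 1.55% of cases and a TATA box anywhere in the 200 bp in 79.3%, compared with 44.2% of all genes. The telo-box was present in 19.4% of ribosomal protein genes and 21.9% of F-box genes, against 6.14% of all genes. Core histone genes had the CCAAT box in 68.8% of cases, against 39.6% of all genes. Group members can share sequence through gene duplication, and none of these shares was tested.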
